A study of Danio rerio with 15 samples.

Results

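The Hedgehog pathway genes described here are shha, ihha, ptch1, smo, gli1, gli2a, gli3 and hhip, taken by symbol, as the deposited table spells it, from 14836 genes. Rows for 7 of the 8 symbols were used, and hhip was not analysed here. The libraries are bulk RNA-seq of wild-type (WT) zebrafish fin, from tissue reaching 1 bone segment to either side of the amputation plane. They were collected at 0, 4, 7, 14 and 21 days post amputation (dpa), with 3 libraries per time point and a pool of 10 animals in each. The labels give no further allele, agent, age or sex, and 0 dpa served as the baseline. The sample labels say 4 dpa for the second time point where the design text of the series says 3.5 days, and the label is used here. The title of the series concerns Erk signalling and the memory of skeletal size, so the time course asks which transcripts at the plane differ from 0 dpa as the fin regrows.

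Hedgehog ligands are secreted, lipid-modified proteins that bind Patched receptors. An unbound Patched receptor holds the membrane protein Smoothened inactive, and ligand binding releases it, which lets Gli transcription factors activate target genes. Patched genes and gli1 are themselves targets of the pathway in vertebrates, so they are often read as its output. In regenerating zebrafish fins, shha is known from the basal epidermis over newly forming bone and ihha from bone-forming cells, and the pathway is known for its part in bone formation and ray branching.

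Values are TPM, an abundance corrected for transcript length and for the library total, divided by a median-of-ratios factor per library and called scaled TPM. An rRNA gene took from 2.26% to 71.6% of the deposited TPM of a library. Relative sequencing depth, recovered from the steps between low values, spanned 5.66-fold with that gene included, with the highest in 0 dpa replicate 1 and the lowest in 4 dpa replicate 3. Outside that gene, as a multiple of the mean depth, it was 0.670 to 2.46 at 0 dpa and 0.126 to 1.27 at 4 dpa. It was 0.227 to 1.25 at 7 dpa, 0.395 to 0.655 at 14 dpa and 0.186 to 0.632 at 21 dpa. Every library of 14 and 21 dpa was thus below every library of 0 dpa. The same steps were used to divide the libraries into a set A and a set B, with the number of sets fixed in advance. The division used how far the ratio of 1-read steps between a pair of libraries spread over genes. That spread was 0.501 to 1.30% for pairs across the sets and 0.00418 to 0.519% for pairs within a set. Every library of 0 and 4 dpa is in set A, and every library of 14 and 21 dpa is in set B. At 7 dpa, replicate 2 is in set B and the others are in set A. The labels name no batch, and for 14 or 21 dpa against 0 or 4 dpa the library set and time cannot be told apart. The comparison of 4 with 0 dpa lies wholly within set A. Osteoblast, epidermal and fin mesenchyme markers were present in the libraries of every time point, with summed levels of at least 1457, 3799 and 161 scaled TPM. The summed muscle markers stayed at or below 5.72 scaled TPM. In tissue of mixed cell types, fewer cells of a type and less RNA per cell cannot be told apart.

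Of the 7 genes with a row, 6 passed a filter of 1 TPM in 3 libraries, and shha did not. They spanned a wide range of levels. Averaged over the 15 libraries, gli2a was the most abundant at 8.49 scaled TPM, above 77.5% of all genes in the table. It was followed by gli3 at 3.07, ptch1 at 1.96, smo at 1.77, gli1 at 1.47 and ihha at 1.30 scaled TPM. The gene shha stood at 0.0815 scaled TPM, with 15.6% of genes below it. Neighbours in this order from ptch1 to ihha differed by less than the spread of each over the 15 libraries, which was from 0.343 to 0.884 scaled TPM (SD).

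**Figure D1:**
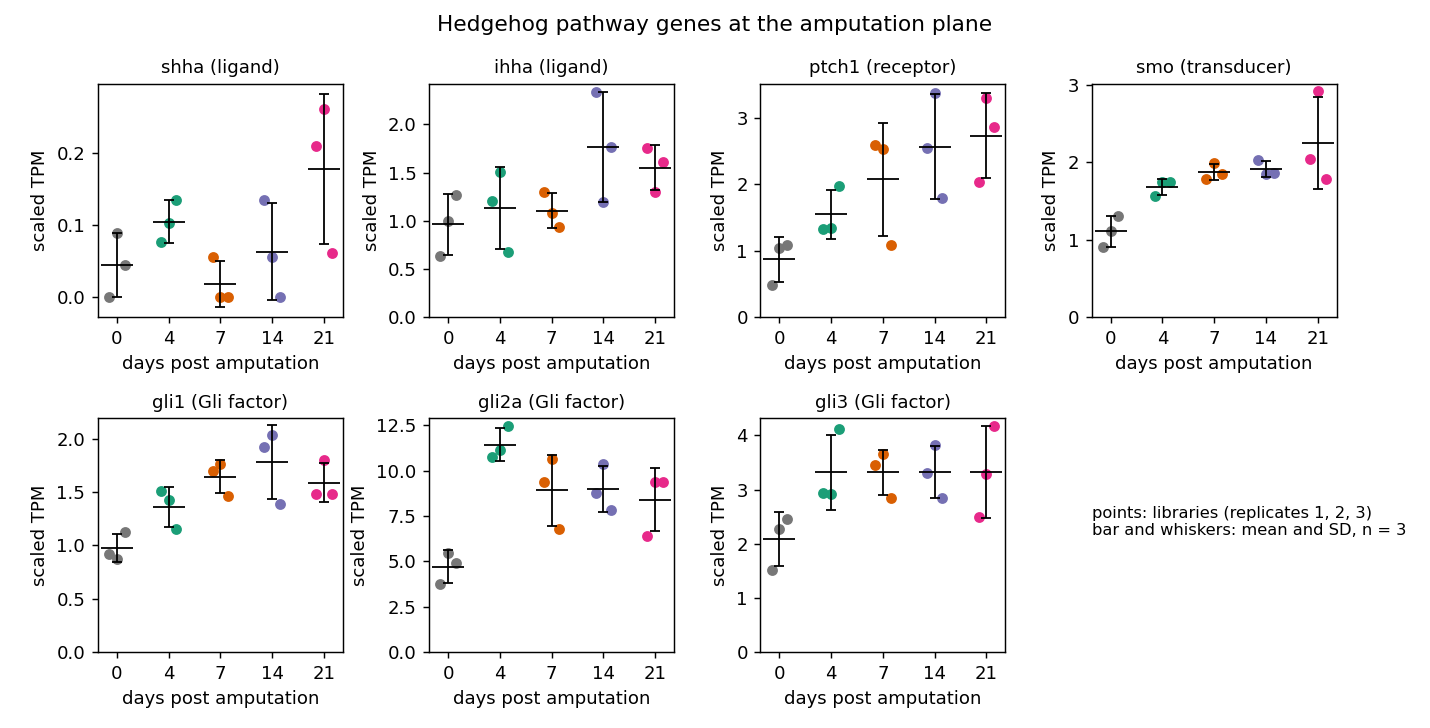
Levels of the 7 Hedgehog pathway genes in scaled TPM (vertical axis, each panel with its own scale) at 0, 4, 7, 14 and 21 dpa (horizontal axis). Points are libraries and bars are the mean and SD of 3 libraries. The levels of gli2a lay between 10.7 and 12.4 at 4 dpa and between 3.73 and 5.48 at 0 dpa, while shha did not pass 0.261 in any library.

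The ligand genes were the least abundant. In scaled TPM, shha measured 0, 0.0893 and 0.0444 at 0 dpa, and 0.0758, 0.102 and 0.135 at 4 dpa. It measured 0.0552, 0 and 0 at 7 dpa, 0.134, 0.0556 and 0 at 14 dpa, and 0.210, 0.261 and 0.0605 at 21 dpa. The 7 dpa libraries lay below every library of 4 and 21 dpa, and all other pairs of time points overlapped. At 3 time points, 4 libraries were at 0. The steps between low values allowed these levels to be read back as whole reads, with no value farther than 0.013 from a whole number of reads. All libraries together held 25 shha reads, of which 4, 10, 1, 3 and 7 came from 0, 4, 7, 14 and 21 dpa. A library with no read still allows 3 reads, which corresponds to between 0.0502 deposited TPM in 0 dpa replicate 1 and 0.216 in 7 dpa replicate 2. These limits cover counting error only. With no filter, the limma F test of shha over the 5 time points had an adjusted p of 0.183, so no difference was called. That test used log2(scaled TPM + 1), where the added 1 is larger than every shha level and shrinks its differences. With so few reads as well, it cannot tell whether shha changed.

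The transcript ihha, which encodes an Indian hedgehog ligand, was better covered, with 283 reads over all libraries (none farther than 0.066 from a whole number). Its levels were 0.637, 0.999 and 1.26 scaled TPM at 0 dpa, and 1.21, 1.51 and 0.680 at 4 dpa. They were 1.30, 1.08 and 0.937 at 7 dpa, 2.34, 1.20 and 1.76 at 14 dpa, and 1.75, 1.30 and 1.61 at 21 dpa. The 21 dpa libraries were all above those of 0 dpa, and the other time points overlapped with 0 dpa. Differences from 0 dpa on the log2(scaled TPM + 1) scale were 0.11, 0.11, 0.48 and 0.38 at 4, 7, 14 and 21 dpa, with an SE of 0.19. None passed the limma test (adjusted p = 0.767, 0.785, 0.133 and 0.204), and the 95% interval at 14 dpa ran from 0.074 to 0.89. The level at 4 dpa rests unevenly on reads, since replicates 1 and 2 held 38 and 44 ihha reads and replicate 3 held 3. Without 0 dpa replicate 1 the differences at 4 and 7 dpa were -0.016 and -0.019.

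The receptor gene ptch1 gave the largest difference from 0 dpa among the 6 tested genes at 14 and 21 dpa. Patched proteins bind the ligand and restrain Smoothened. Its levels were 0.488, 1.04 and 1.09 scaled TPM at 0 dpa, and 1.33, 1.35 and 1.97 at 4 dpa. They were 2.60, 2.52 and 1.09 at 7 dpa, 2.54, 3.36 and 1.79 at 14 dpa, and 2.04, 3.29 and 2.86 at 21 dpa. Every library at 4, 14 and 21 dpa was above every library at 0 dpa, and at 7 dpa replicate 3 lay level with the highest one. Within 0, 14 and 21 dpa, ptch1 was higher where the rRNA gene took more of the library. In replicates 1, 2 and 3 that share was 2.26, 22.1 and 36.1% at 0 dpa and 24.5, 47.4 and 13.3% at 14 dpa. At 21 dpa it was 26.1, 67.0 and 31.0%, and at 7 dpa 60.3, 61.1 and 9.23%. The levels of gli2a kept that order within 7, 14 and 21 dpa only, and those of gli3 at all times but 21 dpa. The part of this share in the levels was not tested. On the log2(scaled TPM + 1) scale, the ptch1 difference from 0 dpa was 0.45, 0.69, 0.92 and 1.00 at 4, 7, 14 and 21 dpa, each with an SE of 0.24. The added 1 exceeds the mean ptch1 level at 0 dpa, 0.874 scaled TPM, so these values understate the change. Over alternatives other than left-out libraries, the difference at 21 dpa reached 1.58, and that of gli2a at 4 dpa 1.45. Which gene differs most thus depends on the setting. By limma with Benjamini-Hochberg adjustment over all genes tested, the last of these (adjusted p = 0.0129) and that at 14 dpa (adjusted p = 0.0250) passed. Those at 4 dpa (adjusted p = 0.232) and 7 dpa (adjusted p = 0.114) did not. Without 0 dpa replicate 1, the library with the lowest ptch1 level, the adjusted p was 0.106 at 14 dpa and 0.0564 at 21 dpa. Other libraries also ended these calls when left out: 14 dpa replicate 1 or 2 at 14 dpa (adjusted p = 0.0741 and 0.125), and 21 dpa replicate 2 at 21 dpa (0.0571). Adding the library set to the model gave differences at 14 and 21 dpa of 0.56 and 0.63, with limma adjusted p of 0.947 and 0.796. On deposited TPM the call at 21 dpa was lost (limma, adjusted p = 0.118).

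The transcript smo encodes Smoothened, the membrane protein that carries the signal into the cell. It measured 0.909, 1.11 and 1.31 scaled TPM at 0 dpa, and 1.57, 1.75 and 1.74 at 4 dpa. It measured 1.79, 2.00 and 1.85 at 7 dpa, 2.03, 1.85 and 1.86 at 14 dpa, and 2.05, 2.92 and 1.79 at 21 dpa. No library after amputation overlapped with those of 0 dpa. The 4 dpa libraries were below every library of 7, 14 and 21 dpa, and those 3 time points overlapped. On the log2(scaled TPM + 1) scale, which understates changes at such levels, the difference from 0 dpa was 0.35, 0.45, 0.47 and 0.61 at 4, 7, 14 and 21 dpa. The SE was 0.14. Only that at 21 dpa passed (limma, adjusted p = 0.0115), and the others had adjusted p of 0.119, 0.0877 and 0.0525. The call at 21 dpa was lost in 5 of 27 alternatives. Among them were those without 0 dpa replicate 1 (limma, adjusted p = 0.0540) and without 21 dpa replicate 2 (0.0511). It was also lost with the library set in the limma model (a difference of 0.52, adjusted p = 0.646) and on deposited TPM (0.52, 0.428).

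Of the Gli transcription factors, gli2a had the most marked time course. In mice, Gli2 is the main activator of the pathway and also has a repressor form. The levels of gli2a were 3.73, 5.48 and 4.93 scaled TPM at 0 dpa, and 10.7, 11.1 and 12.4 at 4 dpa. They were 9.38, 10.6 and 6.78 at 7 dpa, 8.75, 10.4 and 7.84 at 14 dpa, and 6.42, 9.40 and 9.39 at 21 dpa. All libraries after amputation were above all of those at 0 dpa, and the 4 dpa libraries were above every other library. The mean was 11.4 ± 0.892 scaled TPM at 4 dpa, against 4.71 ± 0.895 at 0 dpa (SD, n = 3 each), a log2 difference of 1.13 with a 95% interval from 0.71 to 1.56. This passed the limma test with an adjusted p of 0.00135, and it passed in all 29 alternatives run, where the highest adjusted p was 0.0161. The smallest log2 difference when 1 library was left out was 1.00. Every library of 0 and 4 dpa is in set A, so a fit within that set must return the same 1.13 (limma, adjusted p = 0.0112). Alternatives that left out a library of 7, 14 or 21 dpa, or added the library set, also cannot move this difference. The same holds for those that changed the filter or variance prior, added the replicate block or fitted only the 2 time points. All of these can change only its adjusted p.

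At later times gli2a was 0.79, 0.81 and 0.71 log2 units above 0 dpa, at 7, 14 and 21 dpa. Each passed the limma test (adjusted p = 0.0357, 0.0194 and 0.0277). These calls were less firm than that at 4 dpa: without 0 dpa replicate 1 the adjusted p was 0.142, 0.0825 and 0.109. A limma model with the library set gave differences of 0.67, 0.44 and 0.34 (adjusted p = 0.174, 0.958 and 0.925), and deposited TPM gave 0.87, 1.19 and 0.63 (0.565, 0.0842 and 0.526). At 7 dpa the difference thus stayed near its size while the call was lost. The library-set term rests on 7 dpa, where replicate 2 is the one library of set B. Leaving out single libraries ended the calls at 7, 14 and 21 dpa in 6, 3 and 4 of 15 cases. For 7 dpa these were 0 dpa replicates 1 and 3, 4 dpa replicate 1, 7 dpa replicates 1 and 2 and 14 dpa replicate 1. For 14 dpa they were 0 dpa replicate 1 and 14 dpa replicates 1 and 2, and for 21 dpa 0 dpa replicates 1 and 3 and 21 dpa replicates 2 and 3. The highest adjusted p in those cases were 0.174, without 7 dpa replicate 2, 0.0962, without 14 dpa replicate 2, and 0.109, without 0 dpa replicate 1. The difference between 21 and 4 dpa was -0.42 (limma, adjusted p = 0.152), so a decline after 4 dpa was not called.

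Markers of fin mesenchyme and blastema moved with gli2a at 4 dpa. Their 15 genes summed to between 499 and 906 scaled TPM at 4 dpa, against 161 to 170 at 0 dpa. Of the 15, 11 were called higher and none lower, where 7.87% of all tested genes were called higher and 7.26% lower. Positive log2 differences were seen in 14, against 47.2% of all tested genes, while msx2b stood at -0.51 (limma, adjusted p = 0.112). The later sums of these markers were lower, within 266 to 280, 207 to 228 and 237 to 259 at 7, 14 and 21 dpa. The 10 basal epidermis markers with a row summed to between 3799 and 5505 scaled TPM at 4 dpa, against 6111 to 6813 at 0 dpa. Of these 10, 1 was called higher and 1 lower, and 3 had positive log2 differences. Summed endothelial markers ranged from 27.4 to 28.2 scaled TPM at 4 dpa, against 11.6 to 15.6 at 0 dpa. Nerve and Schwann cell markers summed to between 5.36 and 8.45 scaled TPM at 4 dpa, against 12.3 to 14.4 at 0 dpa. The summed levels of these 4 marker lists therefore did not overlap between 4 and 0 dpa. Nor did the low sums of muscle markers (2.10 to 2.71, against 4.00 to 4.79) and of gut and liver markers (0.932 to 1.16, against 1.85 to 2.29). Such separation was thus not limited to cell types of the fin. Sums of macrophages and neutrophils and of pigment cells overlapped. Osteoblast sums overlapped, although 4 of the 9 osteoblast markers were called higher at 4 dpa. The part of these cell populations in the gli2a difference was not tested.

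The gene gli1, an activator that is also a target of the pathway, measured 0.923, 0.873 and 1.13 scaled TPM at 0 dpa and 1.51, 1.43 and 1.15 at 4 dpa. It measured 1.70, 1.77 and 1.47 at 7 dpa, 1.92, 2.03 and 1.38 at 14 dpa, and 1.48, 1.80 and 1.48 at 21 dpa. All later libraries were above those of 0 dpa, with 4 dpa replicate 3 only just so. On the log2(scaled TPM + 1) scale, which understates changes at such levels, the difference from 0 dpa was 0.26, 0.42, 0.49 and 0.39 at 4, 7, 14 and 21 dpa. The SE was 0.14. Only that at 14 dpa passed (limma, adjusted p = 0.0373), and leaving out single libraries ended this call in 8 of 15 cases. Those libraries were the 0 dpa libraries, 4 dpa replicates 1 and 2, 7 dpa replicate 1 and 14 dpa replicates 1 and 2, with a highest adjusted p of 0.158 without the last of these. With the library set in the limma model the difference was 0.39 (adjusted p = 0.902), and on deposited TPM it was 0.74 (0.114).

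The gene gli3 encodes the Gli factor known in mice mainly as a repressor. Its levels were 1.52, 2.28 and 2.45 scaled TPM at 0 dpa, and 2.93, 2.91 and 4.11 at 4 dpa. They were 3.46, 3.65 and 2.85 at 7 dpa, 3.31, 3.81 and 2.85 at 14 dpa, and 2.48, 3.28 and 4.18 at 21 dpa. The later libraries were all above those of 0 dpa, by a small margin for 21 dpa replicate 1. The log2 difference from 0 dpa lay between 0.48 and 0.50 at each of the 4 later time points, with an SE of 0.19. None passed the limma test, with adjusted p from 0.0948 to 0.143.

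**Figure D2:**
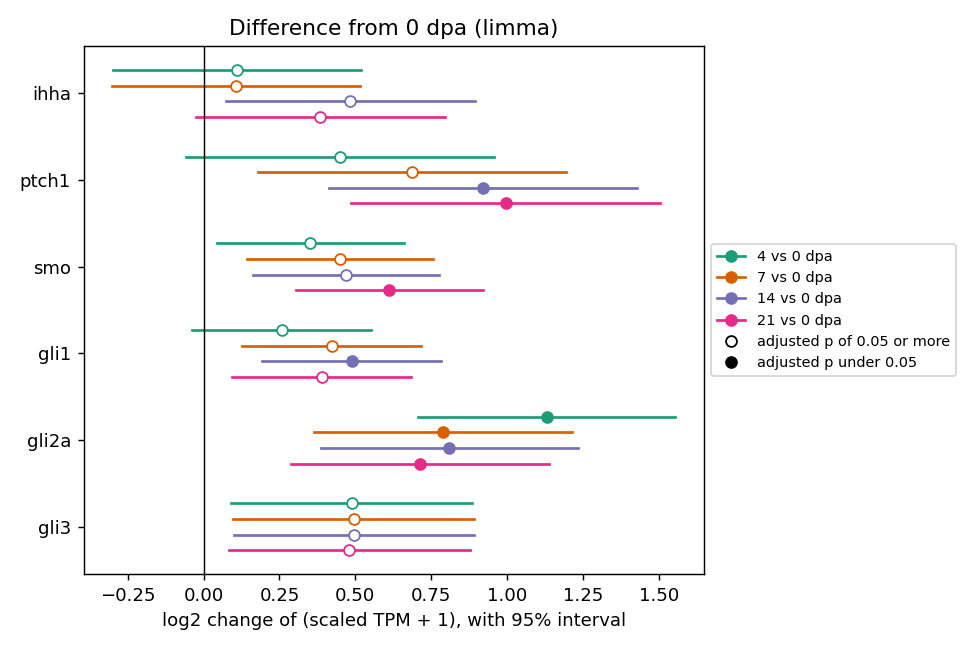
Log2 difference of scaled TPM + 1 between each later time point and 0 dpa (horizontal axis) with its 95% interval, for the 6 tested Hedgehog pathway genes (vertical axis). Filled points have an adjusted p under 0.05 by limma. All points lie above 0, and the highest is gli2a at 4 dpa at 1.13.

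Over the 5 time points together, 3 of the 6 tested genes changed by the limma F test, against 26.7% of all 10235 genes tested. They were gli2a (adjusted p = 0.00668), ptch1 (0.0271) and smo (0.0372). The F tests of gli1 (limma, adjusted p = 0.0745), gli3 (0.156) and ihha (0.214) did not pass. Leaving out single libraries ended the call of smo in 11 of 15 cases (highest adjusted p = 0.150) and that of ptch1 in 3 (0.0910). In both, the highest came without 0 dpa replicate 1. The call of smo held without 4 dpa replicate 3, 7 dpa replicate 3 or 21 dpa replicate 2 or 3, and that of ptch1 was also lost without 21 dpa replicate 2 (limma, adjusted p = 0.0555) or 3 (0.0549). When the library set was in the limma model, the F test of gli2a kept an adjusted p of 0.0169, while those of ptch1 (0.528) and smo (0.315) no longer passed. Each of these F tests includes the difference of 4 from 0 dpa, which lies within set A and which that term cannot move. On deposited TPM without scaling, none of the 3 passed, with adjusted p of 0.0618 for gli2a, 0.0530 for ptch1 and 0.303 for smo.

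At single time points, 1 of the 6 genes was higher at 4 dpa than at 0 dpa, where 7.87% of all tested genes were called higher. At 7 dpa it was 1 of 6, against 2.53% of all tested genes. At 14 dpa it was 3 of 6, against 4.56%, and at 21 dpa 3 of 6, against 6.27%. None of the 6 was called lower in any comparison with 0 dpa, where 7.26, 2.45, 5.59 and 7.33% of all tested genes were lower at 4, 7, 14 and 21 dpa. The median log2 difference of the 6 genes from 0 dpa was 0.40, 0.47, 0.49 and 0.55 at 4, 7, 14 and 21 dpa. Over all tested genes it lay between -0.039 and -0.028. That background depends on level, since with a filter at 5 TPM in 3 libraries it lay between -0.153 and -0.076. Of the 6 genes, only gli2a averaged above 5 scaled TPM. All 4 comparisons share the 0 dpa libraries, so a low library at 0 dpa raises the difference at each later time. Each of the calls counted at 7, 14 and 21 dpa was lost without 0 dpa replicate 1. Each was also lost with the library set in the limma model. The call at 4 dpa, of gli2a, held in both. The library set cannot move that difference, since every library of 0 and 4 dpa is in set A, so only the first of these 2 could test its size.

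Between later time points no Hedgehog gene was called. None of the 6 passed the limma test between 7 and 4 dpa, where 3.63% of all tested genes did, between 14 and 7 dpa (3.46%), or between 21 and 14 dpa (1.41%). Between 21 and 4 dpa, where 22% of all tested genes were called, none of the 6 passed either. The lowest adjusted p in that comparison was 0.119, for ptch1, whose difference was 0.55 with a 95% interval from 0.037 to 1.05.

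Because the scaling factor cancels in a ratio of genes within a library, the log2 ratio was compared over time for all 15 pairs of the 6 tested genes. An exact permutation test over the 1401400 ways to divide the libraries was used, with Benjamini-Hochberg adjustment over the 15 pairs. It was chosen after the data were seen. The ratio of gli2a to gli3 changed (exact permutation p = 0.00405, adjusted p = 0.0344). The log2 ratio was 1.19 ± 0.159, 1.80 ± 0.180, 1.41 ± 0.147, 1.44 ± 0.0310 and 1.35 ± 0.175 at 0, 4, 7, 14 and 21 dpa (SD, n = 3 each). The 4 dpa libraries, from 1.60 to 1.93, had the highest ratios of all 15, so gli2a stood highest against gli3 at that time.

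The ratio of ptch1 to gli2a also changed (exact permutation p = 0.00459, adjusted p = 0.0344). It averaged -2.50 ± 0.391, -2.91 ± 0.216, -2.19 ± 0.402, -1.85 ± 0.257 and -1.63 ± 0.102 at 0, 4, 7, 14 and 21 dpa (SD, n = 3 each). The 21 dpa libraries, from -1.71 to -1.52, lay above all 6 libraries of 0 and 4 dpa, which are of the other library set. Each of the 2 calls was lost in 11 of the 15 runs that left out 1 library, where the highest adjusted p was 0.120. Both held without 0 dpa replicate 2, 7 dpa replicate 3 or 21 dpa replicate 3, gli2a to gli3 also without 4 dpa replicate 3, and ptch1 to gli2a also without 0 dpa replicate 1. The pairs ptch1 to gli3 (exact permutation, adjusted p = 0.0744) and gli1 to gli2a (0.0754) did not pass. The ratio of the ligand gene ihha to its receptor gene ptch1 had an adjusted p of 0.553 in the exact permutation test.

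**Figure D3:**
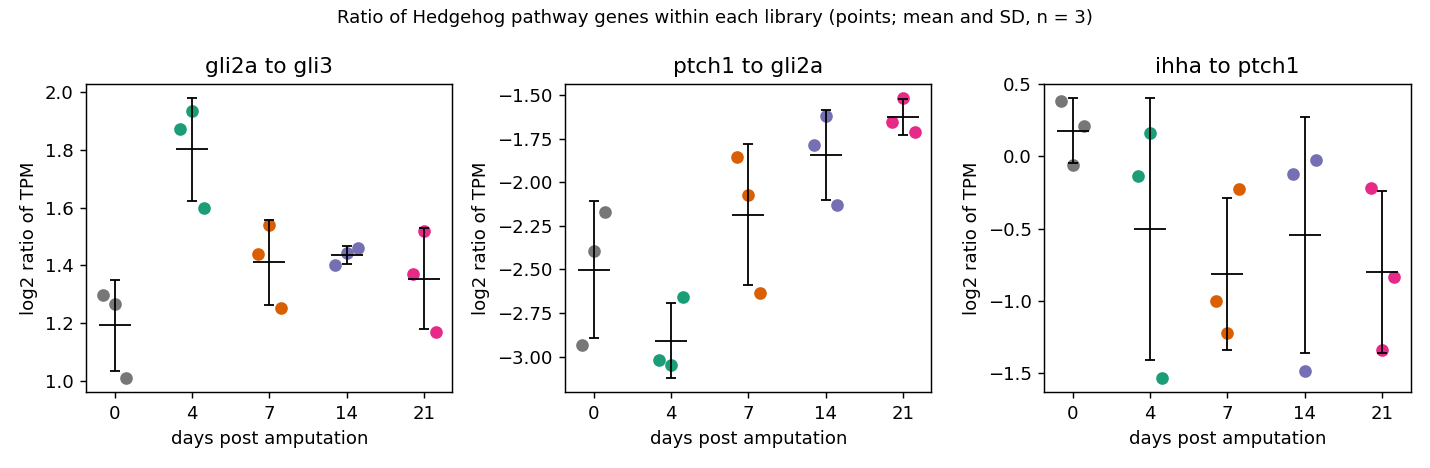
Log2 ratio of TPM (vertical axis) of pairs of Hedgehog pathway genes within each library, by days post amputation (horizontal axis). Points are libraries and bars the mean and SD of 3 libraries. The ratio of gli2a to gli3 is highest at 4 dpa, at 1.80, and that of ptch1 to gli2a at 21 dpa, at -1.63.

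The genes whose levels followed each Hedgehog gene most closely were ranked by Pearson's r of log2(scaled TPM + 1) over the 15 libraries. These points share libraries, time points and depth, and r is given as a description. For ptch1 they were boc, which encodes a ligand-binding co-receptor of the pathway (r = 0.960), smad6a (0.959) and garem (0.943). For gli2a they were cdh2, the N-cadherin gene (0.973), sall1a (0.969) and lims1 (0.953). For smo they were pdgfab (0.904), heyl (0.898) and fzd7a (0.896), the last a Wnt receptor gene. For gli1 they were porcnl (0.924), tbx2a (0.912) and mfsd2b (0.891). For gli3 they were si:ch211-182d3.1 and col27a1a (0.954 each) and si:ch211-216l23.1 (0.934). The ligand gene ihha had the weakest neighbours, which were bmp2b and tpm4b (0.823 each) and hes6 (0.786). The gene bmp2b encodes a BMP ligand.

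The other ligand genes were as scarce as shha. All libraries together held 23 reads of shhb, 7 of ihhb and 20 of dhh, and none passed the filter. The reads of shhb numbered 6, 4, 2, 9 and 2 at 0, 4, 7, 14 and 21 dpa, those of ihhb 0, 1, 3, 1 and 2, and those of dhh 9, 3, 2, 1 and 5. No order over time can be read from such counts. Of the 7 genes for lipid attachment, release and transport of the ligand, 4 were tested and none changed over time by the F test, against 26.7% of all tested genes. In single comparisons, scube1, named after its values were seen, was 0.85 higher at 21 than at 4 dpa (limma, adjusted p = 0.0146), where 22% of all tested genes were called. Libraries of 21 and 4 dpa belong to different library sets. The 4 tested genes include disp1, which exports the ligand from the cell (limma F test, adjusted p = 0.187). The release gene scube2 was below the filter.

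Of the co-receptor genes, 3 of the 4 tested were higher at 21 dpa than at 0 dpa, where 6.27% of all tested genes were called higher. The list holds 6 genes, and 3 changed by the F test, against 26.7% of all tested genes. Higher calls at 4, 7, 14 and 21 dpa numbered 1, 0, 3 and 3, against 7.87, 2.53, 4.56 and 6.27% of all tested genes. None was lower, where 7.26, 2.45, 5.59 and 7.33% of all tested genes were. The co-receptor gene gas1a measured 14.3, 12.6 and 18.6 scaled TPM at 21 dpa, against 5.17, 5.73 and 5.80 at 0 dpa. At 14 dpa it was 14.1, 14.7 and 17.7, so both late time points lay apart from 0 dpa. The log2 difference was 1.32 at 14 dpa (limma, adjusted p = 8.61e-04) and 1.29 at 21 dpa (4.47e-04), and 0.73 at 4 dpa (0.0140). With the library set in the limma model its F test had an adjusted p of 0.0547.

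The co-receptor gene boc measured 4.58, 7.04 and 7.61 scaled TPM at 21 dpa, against 1.52, 2.95 and 2.39 at 0 dpa. It was 1.17 log2 units higher at both 14 and 21 dpa (limma, adjusted p = 0.0201 and 0.0152). Its F test had an adjusted p of 0.0268, and of 0.109 without 0 dpa replicate 1, 0.0751 without 0 dpa replicate 3 and 0.303 with the library set in the limma model. The related gas1b was 0.83 higher at 21 dpa (limma, adjusted p = 0.00370), and 0.312 was the adjusted p of its F test with the library set. The co-receptor cdon had an F-test adjusted p of 0.608.

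Glypicans, cell-surface proteoglycans that can bind the ligand, had 6 of 9 genes tested, and 4 changed by the F test, against 26.7% of all tested genes. They did not move alike. The gene gpc1b was 0.60 higher at 4 dpa than at 0 dpa (limma, adjusted p = 0.0321) and 0.99 lower at 21 dpa than at 4 dpa, a log2 change of -0.99 (0.00118). The related gpc1a was also lower, with a difference of -0.50 at 21 dpa against 4 dpa (limma, adjusted p = 0.0112). For both genes this comparison lies across the library sets. The genes gpc6b and gpc5a were 0.90 and 0.92 higher at 21 dpa than at 0 dpa (limma, adjusted p = 0.00710 and 0.0204), a comparison also across the library sets. Like gpc1b, gpc5a was already higher at 4 dpa, by 0.83 (limma, adjusted p = 0.0319). The F test of gpc5a (limma, adjusted p = 0.0433) was lost in 12 of 26 alternatives, and 8 of these left out a library: 0 dpa replicate 1 or 3, 4 dpa replicate 1, any of 14 dpa, or 21 dpa replicate 1 or 3. The highest adjusted p was 0.177, without 0 dpa replicate 3. That of gpc6b (0.0294) was lost in 7 of 26, among them 0 dpa replicates 1 and 3 and 21 dpa replicates 1 and 3 left out, with a highest adjusted p of 0.219 on deposited TPM (limma).

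Of the genes that act between Smoothened and the Gli proteins, 17 of 28 were tested. By the F test 3 changed, a smaller share than the 26.7% of all tested genes. The list mixes genes that pass on the signal with genes that restrain it, so a lower level gives no direction of signalling. The calls named below for those 3 were to lower levels. The kinase gene gsk3bb measured 4.37, 5.82 and 5.78 scaled TPM at 21 dpa, against 20.6, 33.8 and 21.9 at 0 dpa. Its log2 change was -2.04 at 21 dpa (limma, adjusted p = 1.76e-04) and -2.22 at 14 dpa (4.00e-04). Its kinase also acts in other pathways. All 6 libraries of 14 and 21 dpa belong to set B, and with the library set in the limma model the F test of gsk3bb had an adjusted p of 0.124. At 4 dpa against 0 dpa, prkacba, a protein kinase A subunit gene, changed by -0.98 (limma, adjusted p = 0.00250) and gsk3aa by -0.74 (0.00756). The F test of gsk3aa (limma, adjusted p = 0.0388) was lost in 15 of 26 alternatives, among them upper-quartile scaling (0.0827). Of these, 9 left out a library: 0 dpa replicate 2 or 3, 4 dpa replicate 1 or 2, 7 dpa replicate 1, any of 14 dpa, or 21 dpa replicate 2. The highest adjusted p among the 9 was 0.150, without 4 dpa replicate 2. The Gli inhibitor gene sufu had an F-test adjusted p of 0.306. The remaining Gli factor, gli2b, had one of 0.200, with log2 differences of 0.90 at 4 dpa and 0.53 at 21 dpa. Of 36 genes of the primary cilium, where the signal is relayed in vertebrates, 18 were tested and 1 changed, a smaller share than the 26.7% of all tested genes. It was kifap3a, with a log2 change of -0.69 at 7 dpa against 0 dpa (limma, adjusted p = 0.0368). The F test of kifap3a (limma, adjusted p = 0.0405) was also lost in 15 of 26 alternatives, and 10 of these left out a library: 0 dpa replicate 1 or 3, 4 or 7 dpa replicate 1 or 2, 14 dpa replicate 1 or 3, or 21 dpa replicate 2 or 3. The highest adjusted p among the 10 was 0.128, without 0 dpa replicate 3.

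Of 23 genes reported as Hedgehog targets in vertebrates, besides the main set, 12 were tested, and 7 changed by the F test, against 26.7% of all tested genes. Higher calls at 4, 7, 14 and 21 dpa numbered 3, 0, 2 and 6, against 7.87, 2.53, 4.56 and 6.27% of all tested genes. None was lower, where 7.26, 2.45, 5.59 and 7.33% of all tested genes were. The forkhead gene foxc1b measured 6.83, 9.24 and 11.8 scaled TPM at 21 dpa, against 2.04, 2.60 and 2.33 at 0 dpa. No library at 21 dpa overlapped with 0 dpa. Its log2 difference was 1.61 at 21 dpa (limma, adjusted p = 1.66e-04) and 1.01 at 14 dpa (0.00639), while at 4 dpa it stood at -0.41 (0.189). The F test of foxc1b passed in all 27 alternatives run.

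The BMP ligand gene bmp2a measured 11.2, 9.07 and 10.1 scaled TPM at 21 dpa, against 4.44, 4.09 and 5.54 at 0 dpa. The log2 difference was 0.97 (limma, adjusted p = 0.00488). The cyclin gene ccnd2a was 0.63 higher at 21 dpa (limma, adjusted p = 0.0475), and mycn, a growth regulator, was 0.58 higher at 4 dpa (0.0125). The transcriptional repressor gene prdm1a was 0.74 higher at 4 dpa (limma, adjusted p = 0.00488). The cartilage and skeletal regulator sox9a differed most between 21 and 4 dpa, by 1.96 (limma, adjusted p = 0.00186), and its difference from 0 dpa did not pass at any time point. With the library set in the limma model, the F tests of bmp2a (adjusted p = 0.284), ccnd2a (0.724), mycn (0.0536), prdm1a (0.0547) and sox9a (0.167) did not pass. Leaving out single libraries ended the calls of prdm1a and mycn in 4 of 15 cases each, with highest adjusted p of 0.0774 and 0.0654 (limma), both without 0 dpa replicate 1. The others were 0 dpa replicate 3 and 4 dpa replicates 1 and 2 for prdm1a, and 0 dpa replicates 2 and 3 and 4 dpa replicate 2 for mycn. On deposited TPM, only gas1a, boc, gsk3bb and foxc1b still passed the F test among the genes outside the main set that are named here for it.

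Marker lists also moved at 21 dpa. All 9 tested osteoblast markers had positive log2 differences from 0 dpa (median 0.69), and 3 were called higher, where 6.27% of all tested genes were. Over all tested genes, 46.5% had positive log2 differences at 21 dpa (median -0.039). The osteoblast sums overlapped, at 4341 to 7589 scaled TPM at 21 dpa and 2220 to 7667 at 0 dpa. Of the 15 fin mesenchyme and blastema markers, 6 were higher at 21 dpa, and their sums of 237 to 259 scaled TPM lay above the 161 to 170 of 0 dpa. Of the 5 tested nerve and Schwann markers, 3 had positive log2 differences (median 0.16). Only the myelin gene mpz was called, 1.07 higher (limma, adjusted p = 0.00353). The nerve and Schwann sums lay just above those of 0 dpa (at least 14.44, against at most 14.4 scaled TPM). Sums at 21 dpa were also above those at 0 dpa for endothelium (16.2 to 19.4, against 11.6 to 15.6 scaled TPM), macrophages and neutrophils (at least 83.5, against at most 73.4) and pigment cells (68.6 to 97.6, against 36.1 to 48.0). In these lists 0 of 5, 0 of 4 and 1 of 6 tested genes were called higher, and none lower. Basal epidermis sums at 21 dpa were below those at 0 dpa (4247 to 5608, against 6111 to 6813). Of the 10 tested epidermal markers, 2 were called lower, where 7.33% of all tested genes were. None of the 10 was called higher, though 4 had positive log2 differences. The part of these populations in the differences of the Hedgehog genes, co-receptors and targets at 21 dpa was not tested.

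**Figure D4:**
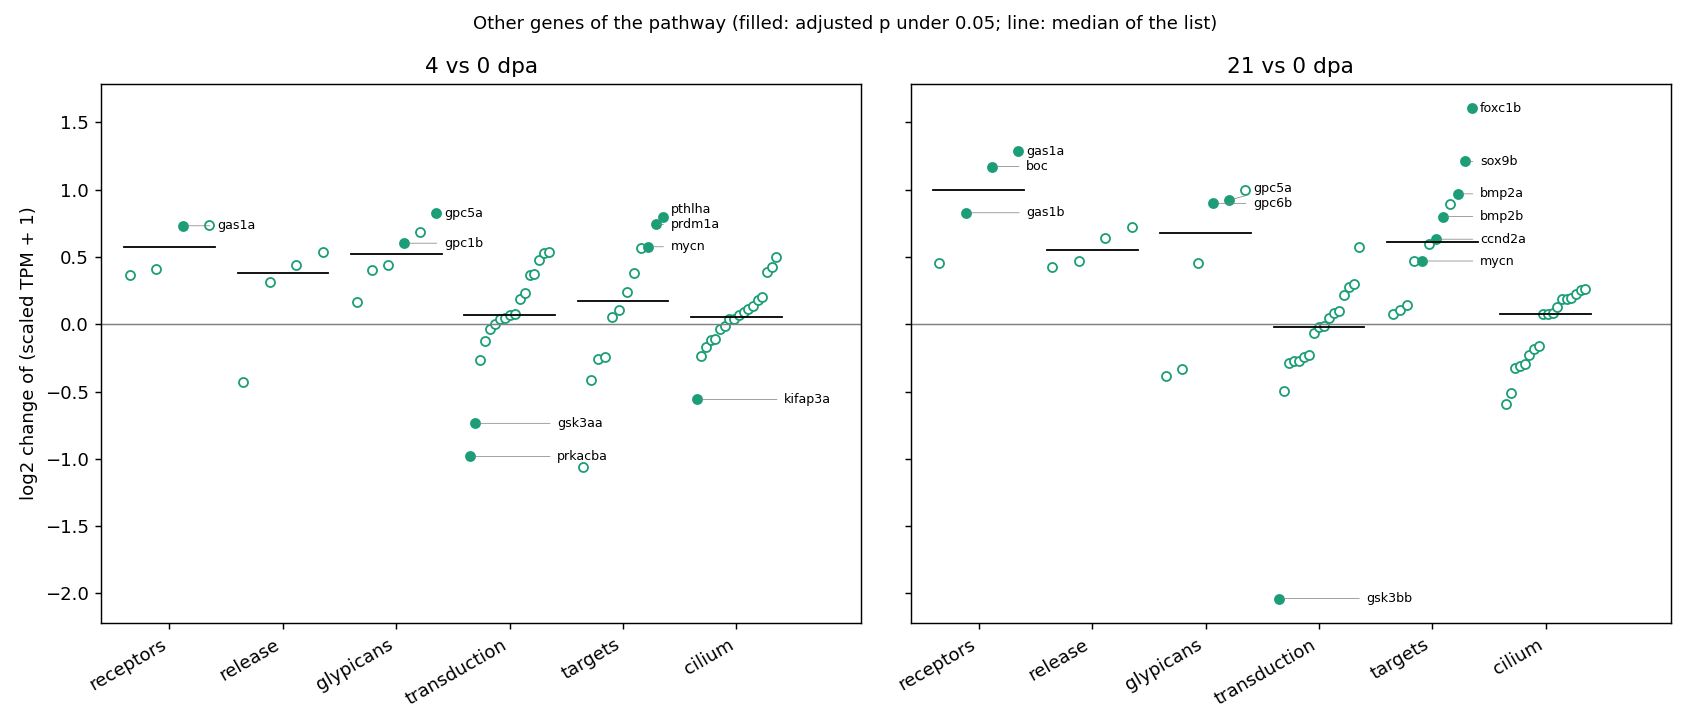
Log2 difference of scaled TPM + 1 from 0 dpa (vertical axis) for other genes of the pathway by list (horizontal axis), in a panel per comparison. Points are genes, filled where the limma adjusted p is under 0.05, and lines are list medians. The 3 higher co-receptor genes and the 6 higher reported targets stand out at 21 dpa, while gsk3bb is lowest at -2.04.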

How the data were processed

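The deposited file holds TPM values, whose columns each sum to 1000000 in the 15 libraries. Per the submitters' processing notes, Trim Galore 0.6.7, cutadapt 3.5, Salmon 1.4.0 and the build danRer11 were used. The annotation and settings are not given in the sources used here, and no coordinates are printed. Per the labels' protocols, cDNA was amplified by PCR and cut with Tn5 before sequencing. Salmon estimates how shared reads divide among near-identical transcripts, so values of paralogs can be uncertain. TPM hold no absolute depth, so no count test was run. Relative depth and read numbers were recovered from steps between low values, assuming the smallest step is 1 read. Step spreads were 0.00418 to 0.519% between libraries of the same set and 0.501 to 1.30% between sets, so the ranges touch.

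Values were scaled by median-of-ratios over the 10774 genes above 0 in all libraries. Tests used limma 3.58.1 in R 4.3.3 on log2(scaled TPM + 1), which understates changes of low genes, for genes that reached a deposited TPM of 1 in 3 or more libraries. The fit had 1 mean per time point, an intensity trend and Benjamini-Hochberg adjustment over 10235 genes, and all tests were two-sided. The threshold for a call was an adjusted p of 0.05. Tested on simulated data for 4 against 0 dpa (10 draws of 10235 genes, 200 of them planted with a log2 change of 2), it called a median of 182.5 of the 200 (175 to 190), with a median of 7 false calls. On the same log2(scaled TPM + 1) scale, the planted change was larger than any difference of the tested members, which reached 1.13. The simulated noise was independent between genes and libraries. Recovery of changes as small as those of the members was not tested. The members, gene lists and tests were chosen with earlier results of these data known. Beyond the members, the text names up to 6 genes per list that passed the F test, in order of p, a fixed group of pathway genes, and the 3 genes most correlated with each tested member. A gene of the pathway lists is not reported here. No 2 columns were identical. Alternatives covered scaling, pseudocount, filter, variance prior, library weights, replicate block, library set and left-out libraries.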

Additional observations from a re-analysis of the deposited data

How the results depend on the processing

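The rise of gli2a at 4 dpa kept its call in all 29 alternatives, and the F test of ihha missed it in all 26. Alternatives that left out a library of 7, 14 or 21 dpa, or added the library set, could not move the size of that gli2a rise. Nor could those of the filter, variance prior, replicate block, set A alone or only the 2 time points. These could change its adjusted p alone. On deposited TPM the median gene shifted by 0.25, 0.06, 0.31 and -0.08 (log2) at 4, 7, 14 and 21 dpa against 0 dpa and by -0.34 at 21 against 4 dpa, so differences there are relative to that shift. The F tests of ptch1, gli2a and smo then had limma adjusted p of 0.0530, 0.0618 and 0.303. The numbers of called genes were 869 over time (2734 with scaling), 531 at 4 (1549), 31 at 7 (510), 199 at 14 (1039) and 197 at 21 dpa (1392) against 0 dpa, 142 for 7 against 4 (372), 68 for 14 against 7 (354), 80 for 21 against 14 (144) and 993 for 21 against 4 dpa (2249). With library weights, whose estimate stopped before converging, gli1 (0.0104) and gli3 (0.0351) passed, and in the same order of comparisons the counts were 6490, 3891, 3309, 3124, 2497, 2834, 1908, 320 and 3112. With the library set as a covariate ptch1 (0.528) and smo (0.315) did not pass, and counts were 1119 over time, 159, 4 and 31 at 7, 14 and 21 against 0 dpa, 210 for 7 against 4, 46 for 14 against 7 and 260 for 21 against 4 dpa. Within set A, an alternative added after seeing the data, 888, 22 and 94 genes were called at 4 and 7 against 0 dpa and 7 against 4 dpa. A filter at 5 TPM left 1797 over time, 222 for 7 against 4 and 1444 for 21 against 4 dpa. Fits of only the 2 time points compared called 806, 53, 558 and 672 at 4, 7, 14 and 21 against 0 dpa, 118 for 7 against 4 and 197 for 14 against 7 dpa. The cause of these shifts was not tested.

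Leaving out 1 library in turn gave counts of 2003 to 3197 over time, 1027 to 1683, 162 to 965, 404 to 1163 and 886 to 1583 at 4, 7, 14 and 21 against 0 dpa, 158 to 404 for 7 against 4, 127 to 416 for 14 against 7, 67 to 180 for 21 against 14 and 1528 to 2434 for 21 against 4 dpa. The limma F-test adjusted p then ran from 0.00352 to 0.0321 for gli2a, 0.00751 to 0.091 for ptch1, 0.0254 to 0.15 for smo, 0.0481 to 0.199 for gli1, 0.101 to 0.531 for gli3, 0.125 to 0.406 for ihha. Same-numbered libraries did not deviate together more than others did. The median correlation was -0.025 over 30 same-numbered pairs (12 above 0.1) and 0.044 over 60 other pairs (26 above 0.1). No pairing by replicate number was seen, but these correlations cannot show whether same-numbered samples were handled together. With a replicate block the limma adjusted p of the F test of smo was 0.0568 and that of gli1 at 14 against 0 dpa was 0.0504, and 2417 genes were called over time.

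No called value changed sign. Uncalled values did: ihha (-0.0088), gli1 (-0.16) and smo (-0.052) at 21 against 4 dpa on deposited TPM. In that comparison gli3 turned with upper-quartile scaling (0.075), median-of-ratios over genes above 5 TPM (0.066) and library weights (0.13), and ran from -0.15 to 0.14 when 1 library was left out. The value of ihha at 7 dpa turned with library weights (-0.012). When 1 library was left out it ran from -0.017 to 0.27 at 4 dpa and from -0.019 to 0.22 at 7 dpa.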
